A study of Homo sapiens with 24 samples.

Results

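KARPAS-422 cells kept in DMSO, the vehicle without drug, were compared on day 3 and on day 1. KARPAS-422 is a human cell line from a diffuse large B-cell lymphoma (DLBCL), and its label gives the EZH2 genotype as Y641N, a change in the catalytic subunit of Polycomb repressive complex 2 that both groups carry. Members were chosen by title: the 3 arrays of DMSO day 3 and the 3 arrays of DMSO day 1, which make 6 of the 24 arrays of the series, with all 19775 genes. The other 18 arrays are DMSO at days 2 and 6 and an EZH2 inhibitor at 5 uM at days 1, 2, 3 and 6, with 3 arrays a group. They give the spread in the fit and the inhibitor arm against which the change in DMSO was set. Total RNA was read on Affymetrix U133 Plus 2 arrays, and the triplicates of each group are described as biological. One line stands for the tumour here, and cell density, medium changes and viability are not given in the sources used here. A level is the log2 expression of a gene's brightest probe set, so that a difference of 1 is a doubling, and levels of different genes are not compared.

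The gene lists with the most called members belong to a pair of circuits known from many cell types. When sterol in the endoplasmic reticulum runs low, INSIG proteins release SCAP, SREBP factors are carried to the Golgi and cut, and their free part switches on the genes of cholesterol and fatty acid synthesis. When amino acids run low, uncharged tRNA activates the kinase GCN2, translation slows, and the transcription factor ATF4 is made and drives genes of amino acid synthesis, uptake and tRNA charging. These are background on the genes below, and neither sterol nor amino acid was measured.

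The 6 arrays were close to each other: Pearson's r over all genes was between 0.994 and 0.998 for every pair, and is given as a description across genes. One array of day 3 stood apart for a group of genes. DMSO day 3 replicate 1 was the lowest of the 3 day 3 arrays in 60 of the 75 genes called higher at day 3, and its values for amino acid stress genes were mostly nearer to those of day 1 than the other day 3 arrays, as given with each result below. The B-cell markers fitted the label: the median of the 7 measured was 10.4 to 10.5 in day 3 arrays and 10.6 to 10.8 in day 1 arrays, and all 7 had a mean above 7. The median of the 14 T and NK cell markers was 4.85 to 5.08 in day 3 arrays and 4.90 to 5.08 in day 1 arrays. Of these 14, 2 had a mean above 7, the higher being CD3G at 10.97. The 10 myeloid markers had medians of 3.89 to 4.09 at day 3 and 3.79 to 4.04 at day 1, and none had a mean above 7. Of 14 stromal, endothelial and epithelial markers only DCN had a mean above 7, at 12.68, and its change was 0.31 (adjusted p = 0.45). No member of these 4 lists was called at day 3 in limma. At an unadjusted p under 0.05, 4 of the 7 B-cell markers were higher, and of the others 1 stromal marker was higher and 1 lower. In RNA from whole cultures, fewer cells of a state and less RNA per cell cannot be told apart.

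Few genes changed between day 1 and day 3 without drug, and most of those that did were higher at day 3. At an adjusted p under 0.05 in limma, 90 of 19775 genes were called (0.455%), 75 higher (0.379%) and 15 lower (0.0759%). With the replicate number as a block 271 genes were called, 205 higher and 66 lower, and all 90 were among them. The arrays bear this pairing out only weakly. In deviations from group means, day 3 and day 1 arrays of equal number correlated at 0.180, 0.103 and 0.387. Day 3 replicate 1 correlated at 0.189 with day 1 replicate 2. The labels state no shared batch, so calls made only with the block are less certain. Of the 75, 17 were at least 2-fold higher, and none of the 15 was 2-fold lower. In 74 of the 75 the 3 day 3 arrays all lay above the 3 day 1 arrays, the exception being SESN2, and in 15 of 15 they all lay below. Over all genes the day 3 arrays lay above in 5.22% and below in 8.55%, and the median change was -0.02. At an unadjusted p under 0.05, 1818 genes (9.19%) passed, 798 higher (4.04%) and 1020 lower (5.16%), so the excess of higher genes holds for the adjusted calls only. The count depended on the arrays used. Without DMSO day 3 replicates 1, 2 and 3 in turn it was 231, 13 and 25, and without DMSO day 1 replicates 1, 2 and 3 in turn it was 27, 41 and 36. A fit on the 6 arrays alone called 7 genes, all higher: INSIG1, SCD, SREBF1, DHCR7, HMGCS1, OLMALINC and SLC25A43. Of the called genes, 30 of 75 higher and 3 of 15 lower belong to a gene list described below, and the lists hold 729 measured genes. The lists were written with earlier results of these data known, so their shares of called genes are descriptions and not tests.

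Genes of cholesterol synthesis and uptake were the group with the highest share of called genes. Of 19 measured members, 11 rose (57.9%, against 0.379% of all genes called higher) and none fell, and in 16 of 19 the day 3 arrays all lay above those of day 1 (5.22% of all genes). The median change of the 19 was 0.49, against -0.02 over all genes. With the replicate block 13 rose. Together with the fatty acid genes, 15 of 33 lipid genes rose (45.5%), 19 with the block and 5 in the fit on 6 arrays alone. Without DMSO day 3 replicates 1, 2 and 3 in turn 13, 6 and 6 of the 33 were called, and without those of day 1 in turn 10, 8 and 9.

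INSIG1, the sterol-sensing anchor that holds SCAP and its SREBP cargo in the endoplasmic reticulum and is itself an SREBP target, had the lowest adjusted p of the list. Its level was 10.83, 10.95 and 10.82 in DMSO day 3 replicates 1, 2 and 3, against 9.55, 9.45 and 9.23 in DMSO day 1. The day 3 values have an SD of 0.07 and all stand well above those of day 1. The difference was 1.45 ± 0.12 (SE, n = 3 arrays a group, adjusted p = 2.2e-06 in limma), a fold of 2.74, and 3 probe sets of the gene moved the same way. Each ± here and below is limma's SE. It rests on the spread pooled over all 24 arrays, not on that of the 6 compared arrays alone. INSIG1 held its call in all 18 alternatives, with a highest adjusted p of 0.016. At day 2 the mean was 10.23, between the other 2 days, and at day 6 it was 10.86, about that of day 3.

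The enzymes of the pathway followed at smaller size. HMGCS1, which makes HMG-CoA at the entry of the pathway, was at 10.78, 10.79 and 10.66 in DMSO day 3 and at 10.05, 9.89 and 9.73 in DMSO day 1, a difference of 0.85 ± 0.12 (adjusted p = 0.0021 in limma). ACAT2, the cytosolic thiolase one step earlier, was at 10.35, 10.65 and 10.58 at day 3 and at 9.84, 9.67 and 9.92 at day 1. The groups do not overlap in either gene, and the difference for ACAT2 was 0.72 ± 0.14 (adjusted p = 0.017). FDPS, which makes farnesyl diphosphate, was at 11.60, 11.98 and 11.89 at day 3 and at 11.23, 11.04 and 11.10 at day 1, a difference of 0.70 ± 0.12 (adjusted p = 0.0081). DHCR7, which carries out the last reduction to cholesterol, was at 7.999, 7.969 and 8.092 at day 3 and at 7.123, 7.108 and 7.208 at day 1. The 6 values fall into 2 tight groups 0.87 ± 0.15 apart (adjusted p = 0.0081). Between these steps, IDI1 (isopentenyl diphosphate isomerase), LSS (lanosterol synthase), MSMO1 (a demethylase of sterols), HSD17B7 (a sterol ketoreductase) and SC5D (a desaturase) rose by 0.46 to 0.64, as did STARD4, a carrier of cholesterol between membranes, by 0.55. HSD17B7 shows how narrow the spread can be: it was at 9.80, 9.81 and 9.90 at day 3 and at 9.36, 9.34 and 9.34 at day 1 (difference 0.49 ± 0.07, adjusted p = 0.0025).

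Of the 8 members that were not called, 7 had a positive difference. SREBF2, which encodes the SREBP factor best known for cholesterol genes, was at 7.66, 7.65 and 7.77 at day 3 and at 7.24, 7.34 and 7.30 at day 1. The groups do not overlap, with a difference of 0.40 ± 0.10 (adjusted p = 0.081, and 0.0084 with the replicate block), and its 2 other probe sets differed by 0.30 and 0.03. EBP, the sterol isomerase, differed by 0.45 (adjusted p = 0.29, 0.049 with the block). SQLE, which makes squalene epoxide, differed by 0.29, NSDHL by 0.23, TM7SF2 by 0.25, MVD by 0.20 and MVK by 0.11, and PMVK by -0.11, with adjusted p of 0.49 to 0.85. MVK and PMVK, the kinases of mevalonate and phosphomevalonate, thus gave the smallest differences of the list in either direction.

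Fatty acid genes showed the same order of days. Of 14 measured members of the list of fatty acid synthesis and sterol export, 4 rose (28.6%, against 0.379% of all genes) and none fell. In 9 the day 3 arrays all lay above day 1 (5.22% of all genes), and the median change was 0.37. FADS1 and NR1H2 are not analysed here. SCD, the desaturase that makes oleic from stearic acid, was at 11.71, 11.82 and 11.73 in DMSO day 3 and at 10.69, 10.78 and 10.53 in DMSO day 1. Each day 3 array lies about 1 log2 unit above the day 1 mean. The difference was 1.09 ± 0.11 (adjusted p = 1.0e-05), and all 4 probe sets of SCD gave the direction. SREBF1, which encodes the SREBP factors best known for fatty acid genes, was at 7.57, 7.58 and 7.51 at day 3 and at 6.50, 6.80 and 6.48 at day 1. The difference of 0.96 ± 0.11 (adjusted p = 5.9e-05) came from its brighter probe set, and the other differed by 0.22. SCD and SREBF1 held their calls in all 18 alternatives, with highest adjusted p of 0.034 and 0.037. FASN, the fatty acid synthase, rose by 0.57 ± 0.13 (adjusted p = 0.043), while its dimmer probe set differed by -0.11. ACACA, the carboxylase that feeds it, differed by 0.33 (adjusted p = 0.07, 0.026 with the block), and FADS2, a desaturase, by 0.43 (adjusted p = 0.2, 0.038 with the block).

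The list also holds targets of LXR, the receptor for oxysterols, which is active when sterol is plentiful. MYLIP, an LXR target that encodes a ubiquitin ligase, was at 7.83, 8.24 and 7.96 at day 3 and at 6.97, 7.33 and 7.22 at day 1, a rise of 0.84 ± 0.13 (adjusted p = 0.0031), with all 6 probe sets positive. ABCA1, the sterol exporter that is the classical LXR target, was at 5.84, 5.92 and 5.40 at day 3 and at 4.71, 4.73 and 5.35 at day 1. Its day 3 replicate 3 sat next to its day 1 replicate 3, and the difference of 0.79 ± 0.26 was not called (adjusted p = 0.26). ABCG1, another LXR target, differed by 0.01 and NR1H3, which encodes an LXR, by -0.09.

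**Figure D1:**
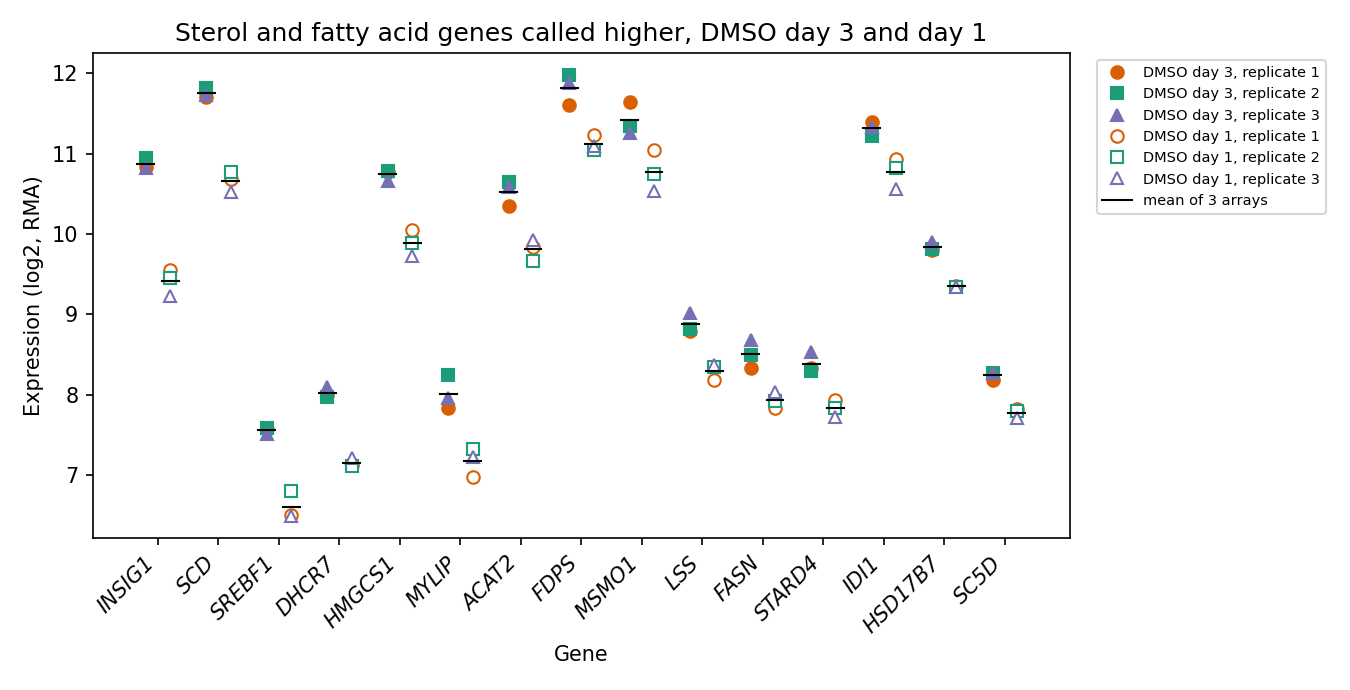
Levels of the 15 sterol and fatty acid genes called higher, one position per gene, with DMSO day 3 (filled) left of DMSO day 1 (open); the y axis is log2 expression, marker shape and colour give the replicate and bars the mean of 3 arrays. In each of the 15 genes the 3 day 3 arrays lie above the 3 day 1 arrays.

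The largest measured difference of all genes was in OLMALINC, a long noncoding RNA gene. It was at 5.70, 6.57 and 6.48 in DMSO day 3 and at 3.88, 4.06 and 4.02 in DMSO day 1. The day 1 arrays lie near the dim end of the scale and the day 3 arrays far above them, a difference of 2.26 ± 0.27 (adjusted p = 1.3e-04). Its day 1 levels are like the median of the myeloid markers given above (3.79 to 4.04), and with no detection calls in the table the size of a fold against them is uncertain. Its call was lost in 1 of 18 alternatives, without replicate 2 of all groups (adjusted p = 0.053). In GRCh38.p14, OLMALINC (chr10:100373576-100388354) is the neighbour of SCD (chr10:100347233-100364826), with 8749 bases and no other gene of the table between them. At days 2 and 6 OLMALINC had means of 4.93 and 6.07, and SCD 11.31 and 11.82. LPIN1, a phosphatidate phosphatase of lipid synthesis that no list holds, rose by 0.85 (adjusted p = 0.0038). It was named after its values were seen.

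Amino acid stress genes formed the other large group, and they were high in 2 of the 3 day 3 arrays. Of 70 measured genes in 4 lists (regulators, amino acid and one-carbon synthesis, transporters and tRNA synthetases), 9 rose (12.9%, against 0.379% of all genes) and none fell, with a median change of 0.25. At an unadjusted p under 0.05, 32 of the 70 were higher and 6 lower. With the replicate block 16 rose. All 9 changed less in DMSO day 3 replicate 1 than in the other day 3 arrays: their median change from the day 1 mean was 0.22 in replicate 1, 2.01 in replicate 2 and 1.35 in replicate 3. Replicate 1's change was 11.8% of the mean of replicates 2 and 3 as a median over the 9, with a range of 8.74% to 46.9%. For the 15 lipid genes the same median was 88.2%, with a range of 58.9% to 163%. Without DMSO day 3 replicate 1, 31 of the 70 were called higher and 1 lower. Without DMSO day 3 replicate 2 or replicate 3, 1 was called, and without DMSO day 1 replicates 1, 2 and 3 in turn 1, 2 and 1. The fit on 6 arrays alone called none of the 70, and neither did that on the 12 DMSO arrays. What set replicate 1 apart was not tested.

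Among the regulators, 3 of 20 were called (15%), and 7 with the block and 11 without DMSO day 3 replicate 1. ATF4, the transcription factor at the centre of the response, was at 11.54, 12.97 and 12.63 in DMSO day 3 replicates 1, 2 and 3 and at 11.08, 11.50 and 11.52 in DMSO day 1. Replicate 1 of day 3 lies just above the highest day 1 value, and the difference was 1.01 ± 0.22 (adjusted p = 0.044). CEBPB, a partner and target of ATF4, was at 8.94, 11.13 and 10.64 at day 3 and at 8.86, 8.72 and 8.69 at day 1, a difference of 1.48 ± 0.33 (adjusted p = 0.044). Its SD was 1.15 at day 3 and 0.09 at day 1, while the SE rests on the spread pooled over all groups. ATF4 and CEBPB each kept the call in 7 of 18 alternatives. SESN2, a leucine sensor that restrains mTORC1, was at 6.48, 8.95 and 8.30 at day 3 and at 6.55, 6.28 and 5.97 at day 1. Its replicate 1 of day 3 fell within the day 1 range, and the difference was 1.65 ± 0.36 (adjusted p = 0.044). INHBE, an inhibin subunit gene induced by ATF4, was at 3.34, 7.01 and 5.94 at day 3 and at 3.26, 3.50 and 2.98 at day 1. The day 1 values and day 3 replicate 1 lie below the median of the myeloid markers, so its size is uncertain too. The measured difference of 2.18 ± 0.51 was not called (adjusted p = 0.064, 0.039 with the block). CHAC1, which breaks down glutathione, was at 5.21, 8.70 and 8.30 at day 3 and at 5.70, 5.39 and 5.69 at day 1. Here replicate 1 of day 3 was the lowest of the 6 arrays, and the difference of 1.81 ± 0.51 was not called (adjusted p = 0.15). DDIT3, which encodes the factor CHOP, was at 7.92, 9.95 and 9.09 at day 3 and at 8.13, 8.15 and 8.03 at day 1 (difference 0.88 ± 0.27, adjusted p = 0.22). ATF5, a relative of ATF4, differed by 1.31 (adjusted p = 0.052, 0.026 with the block), DDIT4, an inhibitor of mTORC1, by 0.95 (0.1 and 0.047) and TRIB3, a pseudokinase that feeds back on ATF4, by 0.48 (adjusted p = 0.22).

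Enzymes of amino acid synthesis showed the same split among arrays. PSAT1, an aminotransferase of serine synthesis, was at 10.16, 11.99 and 11.49 at day 3 and at 10.03, 10.10 and 9.81 at day 1, a difference of 1.23 ± 0.27 (adjusted p = 0.037). CTH, which makes cysteine from cystathionine, was at 8.34, 10.25 and 9.35 at day 3 and at 7.79, 8.11 and 8.07 at day 1, a difference of 1.32 ± 0.28 (adjusted p = 0.035). These were the 2 of 19 measured enzymes that were called (10.5%). ASNS, asparagine synthetase, was at 11.01, 13.02 and 12.60 at day 3 and at 11.07, 11.22 and 10.89 at day 1. Replicates 2 and 3 exceeded every day 1 array by over 1, while replicate 1 lay among them, and the difference of 1.15 ± 0.29 was not called (adjusted p = 0.11). SHMT2 and PSPH, of serine and glycine metabolism, differed by 0.47 and 0.55 (adjusted p = 0.2 and 0.17), and PHGDH, the entry enzyme of serine synthesis, by 0.18 (adjusted p = 0.84) at a dim level of 5.40 to 5.59 at day 3. PCK2, the mitochondrial PEP carboxykinase and a gene outside the lists, rose by 0.88 (adjusted p = 0.022), with changes of 0.22, 1.35 and 1.06 in replicates 1, 2 and 3. It was chosen after its values were seen.

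Of 14 measured amino acid transporters 3 rose (21.4%). SLC38A2, a sodium-coupled carrier of small neutral amino acids that is induced by starvation, had the largest change: it was at 10.11, 11.77 and 11.56 at day 3 and at 9.39, 9.36 and 9.63 at day 1. Here replicate 1 was also above every day 1 array, and the difference was 1.69 ± 0.26 (adjusted p = 0.0031), 3.22-fold, alike in 3 probe sets. SLC38A1, a carrier of the same family, was at 11.39, 11.85 and 11.54 at day 3 and at 11.14, 11.24 and 10.98 at day 1, a difference of 0.47 ± 0.10 (adjusted p = 0.036). SLC43A1, a carrier of large neutral amino acids, rose by 0.86 ± 0.19 (adjusted p = 0.044), with 8.53, 9.88 and 9.41 at day 3 and 8.42, 8.44 and 8.39 at day 1. SLC7A11 and SLC3A2, the 2 chains of the cystine carrier, differed by 0.60 and 0.24 (adjusted p = 0.36 and 0.76). Of 17 measured cytosolic tRNA synthetases 1 rose (5.88%): YARS1, which charges tRNA with tyrosine, was at 9.54, 10.57 and 10.21 at day 3 and at 9.22, 9.36 and 9.28 at day 1 (0.82 ± 0.16, adjusted p = 0.018). With the block AARS1 and CARS1, for alanine and cysteine, were called too, at 0.45 and 0.71.

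**Figure D2:**
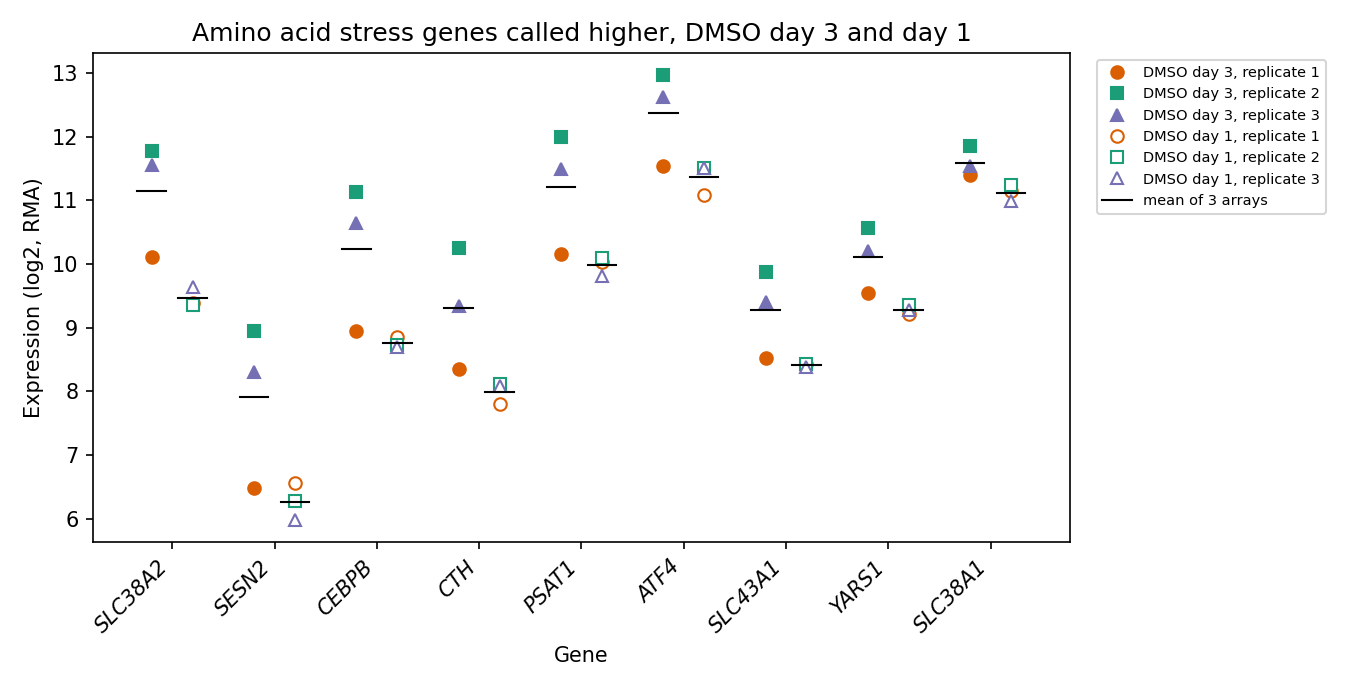
Levels of the 9 amino acid stress genes called higher, with DMSO day 3 (filled) left of DMSO day 1 (open) for each gene; the y axis is log2 expression, marker shape and colour give the replicate and bars the mean of 3 arrays. Replicate 1 of day 3 is the lowest of the 3 day 3 arrays in all 9 genes and lies within the day 1 range in SESN2.

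**Figure D3:**
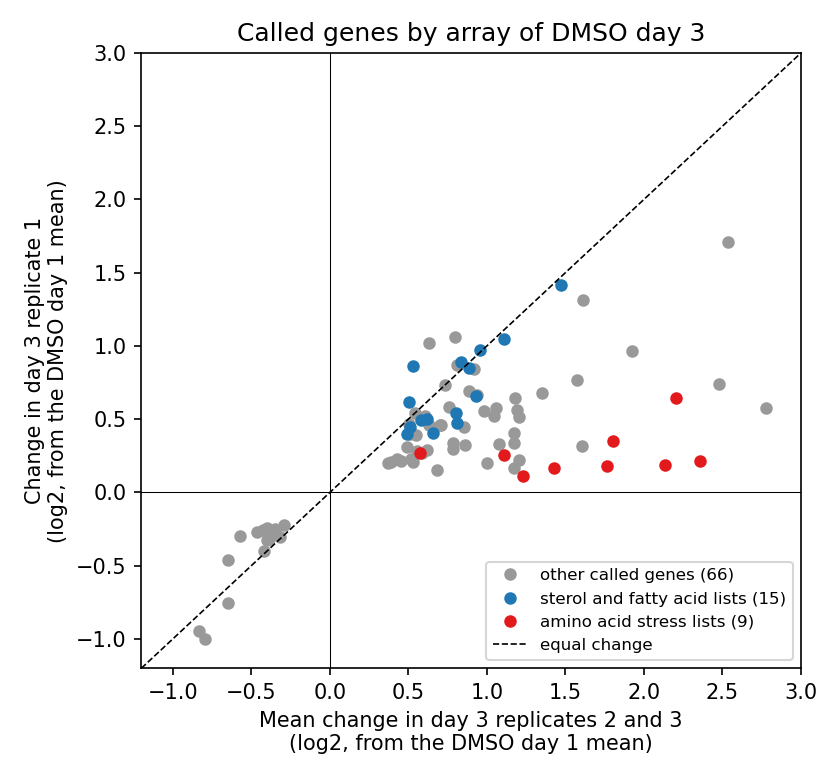
Each point is one of the 90 called genes; the x axis is the mean change of DMSO day 3 replicates 2 and 3 and the y axis that of replicate 1, both in log2 units from the DMSO day 1 mean, and the dashed line marks equal change. The 15 sterol and fatty acid genes lie around the line and the 9 amino acid stress genes lie below it.

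The promoters of both groups were read for the sequence elements through which these circuits are known to act. The windows are those of RefSeq on GRCh38.p14, 250 bases before to 50 after each gene's start, and positions count from the start with no zero. The CEBP-ATF element was searched as TGATGNAA on both strands (TTNCATCA on the other). It occurs in 15 of 56 amino acid stress genes with a window and in 2.62% of the windows of 15384 measured genes. Of the called genes it occurs in 1 of 8, SLC38A1. A sterol element was searched as TCACNCCAC (GTGGNGTGA on the other strand), a motif chosen after the data had been seen. It occurs in none of 13 called lipid genes with a window, in 1 of 29 measured lipid genes, SREBF2, and in 1.09% of the windows of measured genes. A match is a string of letters, not a site shown to be bound, and the absence of one says only that these letters are not in that window. The 4 windows printed hold a match and belong to genes described here: ASNS (chr7:97872359-97872658, minus strand) with the match at -68 to -61, CHAC1 (chr15:40953221-40953520, plus strand) at -209 to -202 on the other strand, SLC38A1 (chr12:46266467-46266766, minus strand) at -4 to 4, and SREBF2 (chr22:41832855-41833154, plus strand) at -133 to -125. Each is given 5′ to 3′ in the gene's direction, with the match in capitals.
ASNS: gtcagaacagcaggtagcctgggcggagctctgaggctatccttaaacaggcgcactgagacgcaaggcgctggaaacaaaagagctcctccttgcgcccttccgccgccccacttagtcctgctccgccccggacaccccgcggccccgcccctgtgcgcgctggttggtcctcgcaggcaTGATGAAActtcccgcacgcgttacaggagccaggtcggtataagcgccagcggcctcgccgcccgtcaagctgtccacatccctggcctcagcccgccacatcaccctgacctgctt
CHAC1: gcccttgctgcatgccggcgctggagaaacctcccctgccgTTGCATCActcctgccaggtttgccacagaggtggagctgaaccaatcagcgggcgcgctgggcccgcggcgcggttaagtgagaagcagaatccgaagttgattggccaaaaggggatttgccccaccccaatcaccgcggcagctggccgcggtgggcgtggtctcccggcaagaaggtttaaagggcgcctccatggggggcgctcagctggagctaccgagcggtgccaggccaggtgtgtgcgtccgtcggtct
SLC38A1: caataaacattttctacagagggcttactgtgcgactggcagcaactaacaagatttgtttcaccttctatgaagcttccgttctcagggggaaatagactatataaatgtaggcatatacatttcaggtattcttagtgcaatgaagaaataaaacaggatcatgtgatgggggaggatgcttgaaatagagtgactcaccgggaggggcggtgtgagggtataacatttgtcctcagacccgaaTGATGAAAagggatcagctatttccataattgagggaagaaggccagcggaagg
SREBF2: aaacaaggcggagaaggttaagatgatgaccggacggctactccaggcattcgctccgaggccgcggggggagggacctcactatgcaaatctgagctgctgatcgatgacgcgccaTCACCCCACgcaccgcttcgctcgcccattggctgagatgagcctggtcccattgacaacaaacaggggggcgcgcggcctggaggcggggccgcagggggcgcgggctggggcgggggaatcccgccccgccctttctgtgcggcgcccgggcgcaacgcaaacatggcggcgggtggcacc

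Among genes of stress and cell death few were called. PMAIP1, which encodes the BH3-only protein NOXA, an antagonist of MCL1 and a target of both p53 and ATF4, was at 8.93, 11.32 and 10.93 in DMSO day 3 and at 8.42, 8.49 and 8.14 in DMSO day 1. Replicate 1 lay above day 1 but far below the other day 3 arrays, and the difference was 2.04 ± 0.38 (adjusted p = 0.015), or 4.13-fold. It was the only called member of 17 measured BCL2 family genes. TNFRSF10B, a death receptor for TRAIL, rose by 0.43 ± 0.08 (adjusted p = 0.017), at 9.998, 10.25 and 10.10 at day 3 and 9.70, 9.75 and 9.60 at day 1, so that its 3 day 3 arrays lay closer together. Its 3 dimmer probe sets differed by 0.16, 0.10 and 0.03, and with the mean of probe sets it was no longer called. PMAIP1 and TNFRSF10B were the 2 of 27 measured CDK inhibitor and p53 target genes that were called (7.41%). CDKN1B, the cell cycle inhibitor p27, differed by 0.59 (adjusted p = 0.064, 0.028 with the block). No ER folding gene of 29 measured was called, and their median change was -0.09, while 4 were higher and 4 lower at an unadjusted p under 0.05, and the block called CRELD2 lower (-0.31, adjusted p = 0.049). XBP1, the unfolded protein factor, differed by 0.74 (adjusted p = 0.22) with 7.93, 9.38 and 8.82 at day 3 and 8.04, 8.08 and 7.78 at day 1, while HSPA5, the main ER chaperone, differed by -0.28 (adjusted p = 0.43).

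In sugar metabolism, PFKFB3, which makes the activator of phosphofructokinase, was the called member of 21 measured glycolysis genes (4.76%), at 6.90, 7.51 and 7.15 at day 3 and at 6.41, 6.29 and 6.35 at day 1, a rise of 0.84 ± 0.19 (adjusted p = 0.044). With the block ALDOC, an aldolase, and PDK1, which restrains pyruvate oxidation, were called too, at 0.80 (adjusted p = 0.0084) and 0.60 (adjusted p = 0.0067). ZNF395, a hypoxia-induced zinc finger gene, was the called member of 26 measured hypoxia genes (3.85%) and rose by 1.00 ± 0.21 (adjusted p = 0.035), though its 2 dimmer probe sets differed by 0.05 and 0.09. In 11 of the 26 hypoxia genes the day 3 arrays all lay above day 1 (5.22% of all genes), with a median change of 0.12. The block called BNIP3L (0.71, adjusted p = 0.0033) and CITED2 (0.45, adjusted p = 0.045) as well, and HIF1A itself differed by 0.11 (adjusted p = 0.6). The HIF motif ACGTG occurs in 22 of 41 measured glycolysis and hypoxia genes with a window and in 24.1% of the windows of measured genes. Of the 2 called genes of these lists 1 had a window, and it held 0 matches, so the 22 are all uncalled members. CCNG2, a FOXO target that slows the cell cycle, rose by 0.51 ± 0.09 (adjusted p = 0.015) as 1 of 23 measured genes of glucose sensing and quiescence (4.35%), to which the block added BTG1 (0.55, adjusted p = 0.022) and TSC22D3 (0.70, adjusted p = 0.047). TXNIP, which follows glucose, was at 10.92, 11.34 and 11.44 at day 3 and at 11.27, 11.17 and 10.95 at day 1 (0.10 ± 0.12, adjusted p = 0.87), and the groups overlap.

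Other called genes with large differences came from several lists or from none. CCL4, a chemokine induced by B-cell receptor signalling, was at 6.89, 9.07 and 8.19 at day 3 and at 6.15, 6.21 and 6.09 at day 1, a difference of 1.90 ± 0.40 (adjusted p = 0.035). It was the called member of 24 measured immediate early genes (4.17%). EGR1, an early transcription factor of that list, was at 8.003, 8.99 and 9.90 at day 3 and at 7.06, 7.12 and 6.46 at day 1. Its difference of 2.09 ± 0.60 had groups that did not overlap but was not called (adjusted p = 0.16). The block added JUND (0.54, adjusted p = 0.019), DUSP1 (0.47, adjusted p = 0.027) and IER2 (0.51, adjusted p = 0.038) of that list. TLR7, the sensor of single-stranded RNA in endosomes, was at 5.36, 6.35 and 6.29 at day 3 and at 4.15, 4.57 and 4.46 at day 1 (1.61 ± 0.27, adjusted p = 0.0081), with a dimmer probe set at 0.34. GPR18, a lipid-sensing receptor of lymphocytes, was at 10.58, 11.31 and 11.19 at day 3 and at 9.83, 10.08 and 9.79 at day 1, a rise of 1.13 ± 0.17 (adjusted p = 0.0025). L3MBTL4, of a family of chromatin readers, rose by 1.51 ± 0.31 (adjusted p = 0.027) in its bright probe set and not in its dim one (-0.15), and PDZRN4, a gene with PDZ and RING domains, by 1.31 ± 0.28 (adjusted p = 0.035). SLC25A43, a mitochondrial carrier, was at 5.04, 5.12 and 5.12 at day 3 and at 4.13, 4.27 and 4.19 at day 1, a difference of 0.89 ± 0.11 (adjusted p = 0.00018) that was lost in 1 of 18 alternatives (adjusted p = 0.085 without replicate 2 of all groups). DNAI1, of ciliary dynein, rose by 0.82, COL23A1, a membrane collagen, by 0.74, AGO4, an Argonaute protein, by 0.70 and FAM168A by 0.46. The other probe set of DNAI1 differed by -0.15 and the 3 others of AGO4 by -0.06 to 0.14, and with the mean of probe sets DNAI1, AGO4, FAM168A, L3MBTL4, ZNF395 and FASN were no longer called. In that setting 18 of the 48 named called genes lost the call. ATF4, CEBPB, SLC43A1 and PFKFB3, with 1 probe set each, were among them.

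The 15 genes that fell did so by less. NQO1, a quinone reductase and target of NRF2, was at 8.83, 8.92 and 8.97 in DMSO day 3 and at 9.47, 9.82 and 10.04 in DMSO day 1. The difference was -0.87 ± 0.18 (adjusted p = 0.027), with its 3 probe sets between -0.80 and -0.91. It was the called member of 21 measured oxidative stress genes (4.76%), of which 6 had day 3 arrays that all lay below day 1 (8.55% of all genes). GCLM, another NRF2 target, differed by -0.15 (adjusted p = 0.49). CDC20, the activator of the anaphase-promoting complex, was at 11.48, 11.13 and 11.29 at day 3 and at 11.86, 11.70 and 11.78 at day 1 (-0.48 ± 0.08, adjusted p = 0.01). CDC20 and CDCA3, a mitotic gene that fell by 0.40, were the 2 of 46 measured G2/M genes that were called (4.35%), with a list median of -0.07. MKI67, the proliferation marker, differed by -0.11 ± 0.10 (adjusted p = 0.84) and overlapped between days. ITGAL, the alpha chain of LFA-1, fell by 0.68 and CA8, a carbonic anhydrase relative, by 0.86, both at dim levels with other probe sets that did not follow, and neither was called with the mean of probe sets. The other lower genes were TAF9B, of the TFIID complex (-0.59), PLPP5, a lipid phosphatase (-0.41), AIFM2, the ferroptosis suppressor FSP1 (-0.37), ZNRD2 (-0.37), PPDPF (-0.36), WNT9B, a secreted ligand (-0.35), PRPF38A, of the spliceosome (-0.35), EMC1, of the ER membrane complex (-0.32), POP5, of RNase P (-0.31), and TMEM126A (-0.27). With the mean of probe sets TAF9B, PLPP5, AIFM2, PRPF38A and EMC1 were no longer called. All 4 probe sets of PLPP5 and all 2 of AIFM2 were negative. The other probe sets differed by -0.54 to 0.03 for TAF9B, -0.15 and 0.03 for PRPF38A and -0.15 to 0.13 for EMC1. WNT9B was dim, with means of 3.90 at day 3 and 4.25 at day 1, so its size is uncertain.

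Most lists of growth and identity had no called gene in limma. None of 43 measured G1/S and replication genes was called, with a median change of 0.01, and 0 were higher and 2 lower at an unadjusted p under 0.05. None of 34 ribosome biogenesis genes was called, with a median of -0.12 and 6 lower at an unadjusted p under 0.05 (UTP4 with the block, -0.27, adjusted p = 0.038), and MYC was at 12.04, 11.88 and 11.99 at day 3 and at 11.65, 11.92 and 11.69 at day 1 (0.22 ± 0.12, adjusted p = 0.64). The 26 ribosomal protein genes had a median of 0.00 with none under an unadjusted 0.05, and the 34 oxidative phosphorylation genes one of -0.08 with 3 lower. In 12 of these 34 the day 3 arrays all lay below day 1 (8.55% of all genes), and 4 had a positive difference. For the 34 ribosome biogenesis genes these counts were 6 and 3. Over all genes 8343 of 19775 differences were positive. None of 39 germinal centre and B lineage genes was called, though 8 were higher at an unadjusted p under 0.05, and the block called 4, among them CD22 (0.69, adjusted p = 0.0044) and MS4A1 (0.45, adjusted p = 0.047), the surface proteins CD22 and CD20. None of 12 PRC2 subunit genes was called, 1 being higher at an unadjusted p under 0.05, and EZH2 was at 10.29, 10.41 and 10.16 at day 3 and at 10.33, 10.33 and 9.97 at day 1 (0.08 ± 0.12, adjusted p = 0.91). Of 24 MHC genes none was called and 4 were higher at an unadjusted p under 0.05, while the block called HLA-DOA, CIITA and HLA-DOB higher (0.37 to 0.46, adjusted p of 0.011 to 0.038). Of 23 NF-kB genes none was called and 1 was lower, while the block called LTA higher (0.43, adjusted p = 0.035). Of 22 histone genes none was called and 3 were higher, and the block called H2BC12, H2BC6 and H2BC9 (0.38 to 0.45, adjusted p of 0.0025 to 0.049). Of 28 autophagy and lysosome genes none was called, 1 being higher and 1 lower. Of 16 heat shock genes none was called, 1 being higher and 2 lower. Of 21 plasma cell genes none was called and 1 was higher.

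Interferon-stimulated genes had a high median without a call. Of 41 measured members, 38 had a positive difference, the median was 0.48, and none was called in limma, while 15 were higher and 1 lower at an unadjusted p under 0.05. In 15 of the 41 the day 3 arrays all lay above day 1 (5.22% of all genes). The block called IFI6 (1.15, adjusted p = 0.039) and IFI44 (0.76, adjusted p = 0.042). The day 1 arrays were unequal for the list: their median changes from the day 1 mean were -0.25, 0.00 and 0.29 in replicates 1, 2 and 3, while those of day 3 were 0.27, 0.48 and 0.58. IFI6, a mitochondrial interferon-induced protein, was at 11.75, 11.77 and 12.19 at day 3 and at 10.14, 10.82 and 11.29 at day 1. The day 1 arrays thus spanned about as much as the difference between the means (1.15 ± 0.32, adjusted p = 0.16).

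The inhibitor arm ran over the same days and shows which of these changes the drug-treated cultures shared. Inhibitor day 3 minus inhibitor day 1 gave 3219 called genes (16.3%), against 90 in DMSO. Of the 75 genes higher in DMSO, 68 had the same direction in the inhibitor arm, 49 were called higher there (7.52% of all genes) and none was called lower. Of the 15 lower genes, 15 had the same direction and 11 were called lower there (8.75% of all genes). The difference of the 2 changes, DMSO minus inhibitor, was called in 517 genes (2.61%), positive in 1.01% and negative in 1.6%, in 1254 with the replicate block, and in 12 of the 90. Without replicate 2 of all groups it was called in 12 genes, without replicate 3 in 106, without DMSO day 3 replicate 2 in 275, and without DMSO day 1 replicates 2 and 3 in turn in 285 and 260.

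The lipid genes changed in both arms. In the inhibitor arm 11 of 19 cholesterol genes and 5 of 14 fatty acid and sterol export genes rose (7.52% of all genes) and none fell. For none of the 33 was the difference between the arms called. Over all genes it was called in 2.61%, a share at which 33 genes can hold none. INSIG1 changed by 1.45 in DMSO and by 1.25 in inhibitor, SCD by 1.09 and 0.96, and OLMALINC by 2.26 and 1.53. FDPS, at 0.70 in DMSO and 0.29 in inhibitor, and FASN, at 0.57 and 0.24, were not called in the inhibitor arm, but the difference of the changes was not called either (adjusted p = 0.26 and 0.43). The amino acid stress genes gave other values: of the 9 called in DMSO none was called in the inhibitor arm, and the difference between arms was called for 4. These 9 were picked by DMSO arrays that also enter the difference, which favours a larger change in DMSO. Over the whole lists the difference was called, in either direction, in 2 of 20 regulators, 3 of 19 synthesis enzymes, 3 of 14 transporters and 6 of 17 tRNA synthetases (2.61% of all genes). In the inhibitor arm 3 of 19 synthesis enzymes, 1 of 14 transporters and 6 of 17 tRNA synthetases fell (8.75% of all genes). There 1 regulator and 1 synthesis enzyme rose (7.52% of all genes). A fall in inhibitor thus enters the difference for some of the 70. The day 3 minus day 1 value of CEBPB was 1.48 in DMSO and -0.27 in inhibitor, a difference of 1.76 ± 0.46 (adjusted p = 0.043). That of PSAT1 was 1.23 in DMSO and -0.20 in inhibitor (difference 1.44 ± 0.37, adjusted p = 0.042), that of YARS1 0.82 and -0.02 (0.84 ± 0.22, adjusted p = 0.044), and that of SLC38A1 0.47 and -0.07 (0.54 ± 0.14, adjusted p = 0.043). ATF4, at 1.01 in DMSO and 0.09 in inhibitor, did not pass the test of the difference (adjusted p = 0.14). TLR7 went the other way: it changed by 1.61 in DMSO and by 3.06 in inhibitor (difference -1.46 ± 0.39, adjusted p = 0.046). Interferon-stimulated genes were called higher in the inhibitor arm in 39 of 41 (7.52% of all genes), and for 27 of the 41 the arms differed (2.61% of all genes).

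**Figure D4:**
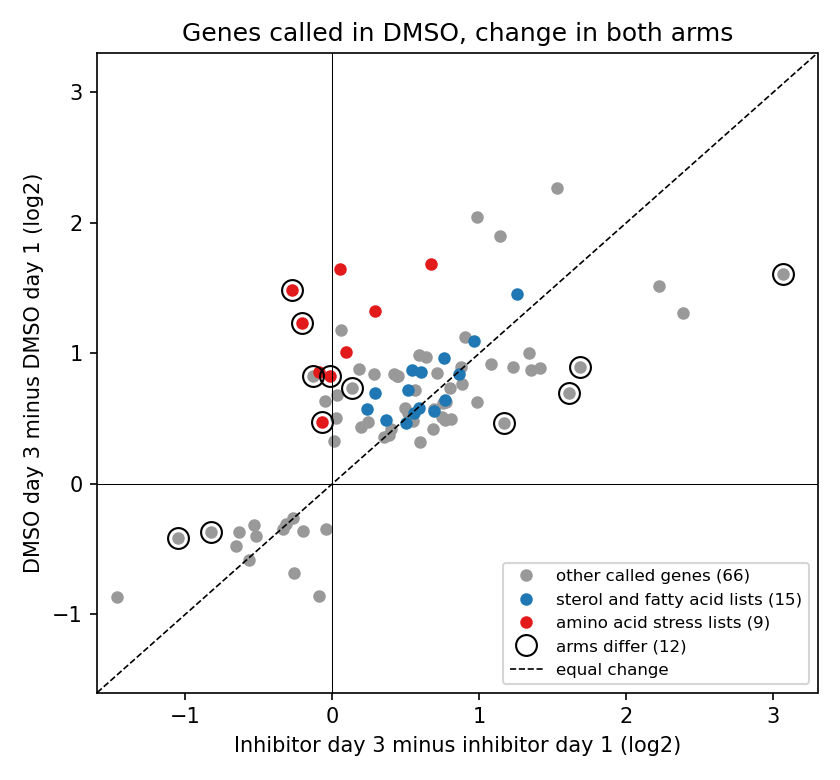
Each point is one of the 90 genes called in DMSO; the y axis is DMSO day 3 minus DMSO day 1 and the x axis inhibitor day 3 minus inhibitor day 1, both in log2 units, with equal change on the dashed line. Lipid genes lie around the line or above it, the amino acid stress genes lie above it, from -0.27 to 0.67 on the x axis, and circles mark the 12 genes whose change differed between arms.

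The days between and after place the 2 patterns in time. The median change of the cholesterol list from the DMSO day 1 mean was -0.03, 0.28 and 0.29 in DMSO day 2 replicates 1, 2 and 3, then 0.48, 0.47 and 0.55 at day 3 and 0.62, 0.57 and 0.58 at day 6. The array numbered 1 was at the day 1 level on day 2, and the array with that number on day 3 was level with the others. The labels do not state that equal numbers on different days are the same culture. The regulators of the amino acid response were at -0.01, 0.08 and 0.02 on day 2, at 0.04, 0.93 and 0.67 on day 3 and at 0.34, 0.46 and 0.24 on day 6. On day 3 the array numbered 1 was low, and on day 6 no array stood apart in this way. PSAT1 followed this in single values, with 10.15, 10.24 and 10.05 on day 2 and 11.01, 10.62 and 10.41 on day 6. ATF4 was at 11.45, 11.64 and 11.70 on day 2 and at 12.34, 12.33 and 12.28 on day 6. In the inhibitor arm the same list of regulators stayed between -0.03 and -0.02 on day 3, while the cholesterol list was at 0.22, 0.46 and 0.40 on day 3 and at -0.16, 0.01 and -0.02 on day 6. All of these changes are counted from the same DMSO day 1 mean.

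**Figure D5:**
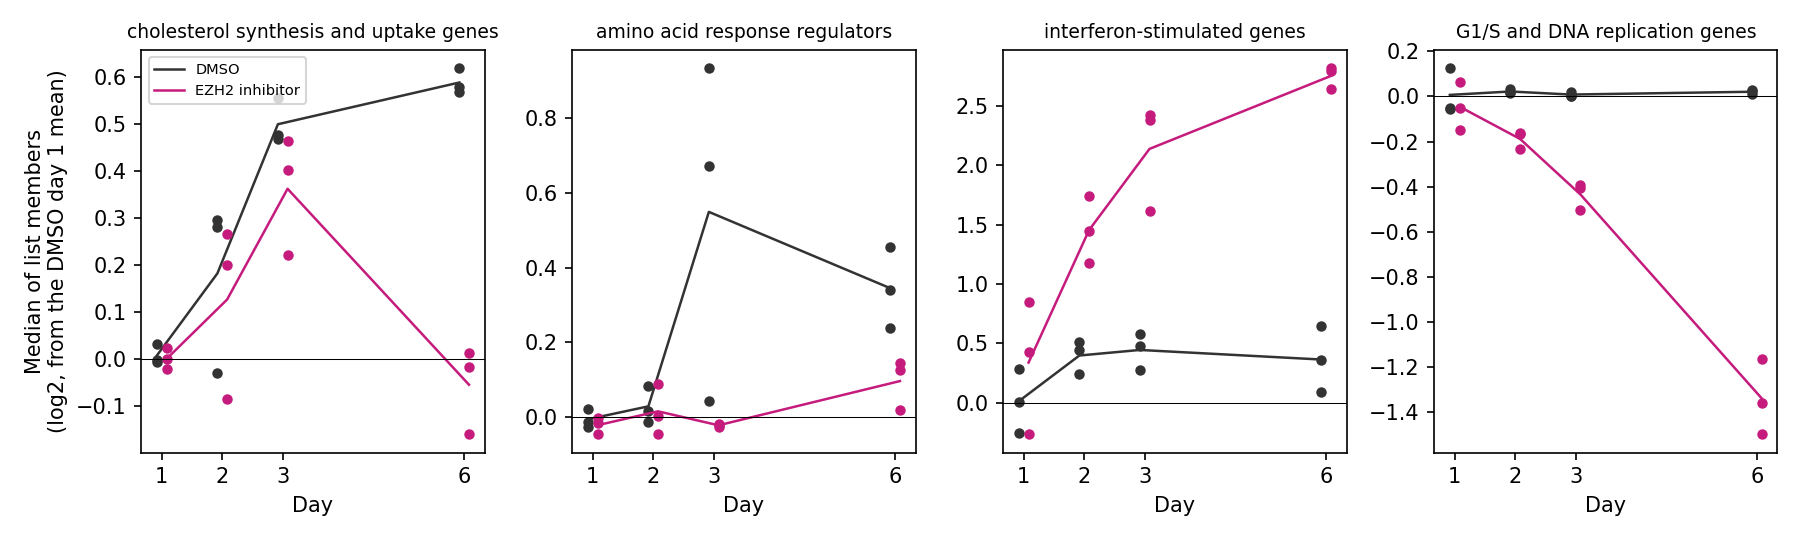
Median change of the members of 4 gene lists from the DMSO day 1 mean, in log2 units, by day and arm; each point is one array and lines join the means of 3 arrays, and the scales differ between panels. Cholesterol genes are high in all DMSO day 3 arrays, amino acid regulators are high in 2 of 3 DMSO day 3 arrays, and G1/S genes stay near 0 in DMSO.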

How the data were processed

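The deposited values are log2 expression. According to the submitters' processing notes the authors made them with RMA and R 2.10.1, and no log base is given in the sources used here; the range of 1.72 to 14.33, with medians between 4.958 and 5.032 on the 24 arrays, is that of log2 values. RMA corrects background, equalises the distribution of all arrays and sums the probes of a set, so that a shift of most genes in one direction would be removed and dim genes are compressed. The number of arrays limits the precision.

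Of 54613 probe sets, 41091 had 1 gene symbol in the platform's annotation, 1801 had several and were left out, and 11721 had none here; 41037 symbols were updated by Entrez ID. Each of the 19775 genes is represented by its brightest probe set (mean of 24 arrays). One limma fit (3.58.1, in R 4.3.3, with data.table in version 1.17.8) had 8 group means, 16 residual and 5.22 prior degrees of freedom, and contrasts for DMSO day 3 minus day 1, the same in the inhibitor arm, and their difference. A gene was called at a 2-sided p under 0.05 after Benjamini-Hochberg adjustment over all genes. An exact permutation test of 3 arrays against 3 cannot go below 0.10 and was not used. The fit was tested on simulated data with 1 spread per gene, equal in all groups, and no replicate effect. That test cannot speak for genes whose spread differs between the groups.

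The 32 gene lists and the members were chosen with earlier results of these data known. Named genes are the 14 highest and 14 lowest called differences without overlap of arrays, up to 5 called members a list, 8 fixed genes (ATF4, DDIT3, HIF1A, SREBF2, MYC, TXNIP, MKI67 and EZH2), the 8 largest differences between arms each way, and list members with their values. The deviations of arrays of equal replicate number at day 3 and day 1 from their group means correlated at 0.180, 0.103 and 0.387 over genes. The main fit takes no pairs, and because of these values a fit with the replicate block is given beside it. The labels state no shared batch, and day 3 replicate 1 correlated as much with day 1 replicate 2 (0.189). Alternatives were other sets of arrays, the block, array weights, 2 other scalings, a filter on dim genes, the mean of probe sets, and each array or replicate number left out.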

Additional observations from a re-analysis of the deposited data

Results flagged for a closer look

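For 12 of the 90 genes called in DMSO the change from day 1 to day 3 differed between the arms in limma's test of the difference, DMSO change minus inhibitor change. The 90 were picked by DMSO arrays that also enter this difference. The difference was 1.76 for CEBPB (adjusted p = 0.043), 1.44 for PSAT1 (0.042), 0.84 for YARS1 (0.044) and 0.54 for SLC38A1 (0.043), all of them amino acid stress genes that were low in DMSO day 3 replicate 1. DNAI1 at 0.96 (adjusted p = 0.023) and COL23A1 at 0.60 (0.048) rose in DMSO and were not called in the inhibitor arm. PLPP5 at 0.64 (adjusted p = 0.0054) and AIFM2 at 0.46 (0.03) fell in both arms, by 0.41 and 0.37 in DMSO and by 1.05 and 0.83 in inhibitor. TLR7 at -1.46 (adjusted p = 0.046), AGO4 at -0.91 (0.0066), SLC25A43 at -0.79 (0.007) and FAM168A at -0.70 (0.0076) rose in both arms and by more in the inhibitor arm.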

How the results depend on the processing

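INSIG1, SCD and SREBF1 kept their call in all 18 alternatives, and OLMALINC and SLC25A43 in 17. Of the 48 named genes that were called, all 48 kept the call with the replicate block and with array weights, 44 with array medians subtracted, 45 with a repeated quantile normalization, 30 with the mean of probe sets, 20 with the block in 6 arrays, 14 with the 12 DMSO arrays and 7 with 6 arrays; none reversed. Those with fewer samples have fewer degrees of freedom and take no part of the spread from the arrays left out. Otherwise the cause was not tested. The 90 calls (75 higher, 15 lower) became 7 (7 and 0) with 6 arrays, 21 (20 and 1) with 12 DMSO arrays, 271 (205 and 66) with the replicate block, 56 with the block in 6 arrays (4 lower) and 214 (167 and 47) with array weights; the lower genes became 9 with the mean of probe sets. Leaving out 1 array or 1 replicate number gave 4 to 231 calls, 4 to 179 higher and 0 to 52 lower. The 517 differences between arms (200 positive, 317 negative) became 235 (56 and 179) with the 12 arrays of days 1 and 3, 1254 (558 and 696) with the replicate block and 824 (374 positive) with array weights, and the positive ones 306 without the dimmest 40% of genes. Leaving out arrays or numbers gave 12 to 439, with 1 to 175 positive and 11 to 291 negative. The 3219 inhibitor calls became 1028 to 3257 with arrays or numbers left out, 4518 with the replicate block, 3925 with array weights and 2981 to 3411 under the other settings. The uncalled genes TXNIP, MKI67 and EZH2 changed sign with arrays left out: TXNIP ranged over -0.092 to 0.33, MKI67 over -0.18 to 0.031 and EZH2 over -0.045 to 0.14. MKI67 was at 0.018 with the mean of probe sets. Where 1 array was left out, 2 stood for its group.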
